A study of Homo sapiens with 3 samples.

Results

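The cystatin genes CST1, CST2, CST3, CST4, CST6, CSTA and CSTB were followed in MDA-MB-231, an established human breast carcinoma line with basal and mesenchymal traits, usually regarded as lacking the nuclear estrogen receptor alpha. They are 7 of the 19775 genes that the array names, and 11 of its 54675 probe sets, groups of short oligonucleotides that read the same transcript, carried 1 of these symbols and no other. The members were chosen by symbol, beside cystatin genes whose differences between these arrays were already known, so their values are a description and support no test. Vehicle cells received 0.1% ethanol, and the other cells received estradiol, the chief natural estrogen, or tamoxifen, an estrogen receptor blocker used in breast cancer, at 1 µM. By its title the study asked how tamoxifen alters early gene expression. Treatment lasted 3 h and followed a preincubation of 4 h, and the serum of the medium (10%) had been stripped with charcoal, which removes most steroid hormone. Each group had 1 biotin-labelled Affymetrix array, and no value below has a replicate error or a p-value.

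Cystatins are small proteins that block papain-like cysteine proteases, the cathepsins, by wedging into the active site. The stefins, cystatin A (CSTA) and cystatin B (CSTB), stay inside the cell, whereas the products of CST1, CST2, CST3, CST4 and CST6 carry a signal peptide and are secreted. Cystatins SN, SA and S, encoded by CST1, CST2 and CST4, are best known from saliva and are close paralogs, and CST1 is also known from several carcinomas. Cystatin C (CST3) is made by nearly all nucleated cells, and cystatin E/M (CST6) also blocks legumain and is known as a gene silenced in many breast tumours.

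The deposited numbers, taken to be log2 values because the processing notes name RMA, are centred on an unstated baseline that is none of the 3 columns, so a value of 0 is that baseline and not absence of RNA. The higher value was taken to mean more RNA, which the files do not state, and every fold below rests on these assumptions. Over genes above a brightness floor the SD was 0.20 for vehicle, 0.49 for estradiol and 0.49 for tamoxifen. Because the vehicle column was this narrow, many differences from vehicle, but not all, are shown again after doubling the vehicle value. The rest are given as deposited. After doubling, the unknown baseline may fail to cancel. Which setting is closer to the true difference was not tested, and the difference of tamoxifen from estradiol takes in no vehicle value. That floor, at a level of about 4 (log2), was read from the binary steps of the numbers in all 3 columns. Above it lay 11941 genes. For this reading the vehicle values were taken to lie on steps 1 finer than the ligand values, as numbers divided by 2 would. Its bearing on the choice of setting was not tested. All 8 markers of basal or mesenchymal breast cells lay above the floor. Of the luminal markers 2 of 7 did, ESR1 (by 1 of its 9 probe sets) and GATA3. The poly-A control transcripts of bacterial genes differed by a median of 1.04 between estradiol and vehicle, 0.87 between tamoxifen and vehicle and -0.17 between tamoxifen and estradiol, over 24 probe sets. With the vehicle doubled the first 2 medians were 0.47 and 0.39. Their part in the results was not tested.

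The salivary-type cystatin genes stood apart from the other members in their values. CST1 had a deposited log2 value of 1.99 with vehicle, 4.03 with estradiol and 2.57 with tamoxifen (probe set 206224_at). CST4 had 1.55, 3.27 and 2.14 in the same order (206994_at). CST2 had 1.54, 3.26 and 2.22 (208555_x_at). All 9 of these values lay well above the baseline, with estradiol highest, tamoxifen next and vehicle lowest in each gene. The values of CST2 and CST4 differed by 0.008 with vehicle, 0.014 with estradiol and 0.085 with tamoxifen. The CST2 probe set is of a type that can bind related transcripts, and these paralogs may share signal, so CST1, CST2 and CST4 cannot be counted as independent readings.

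**Figure D1:**
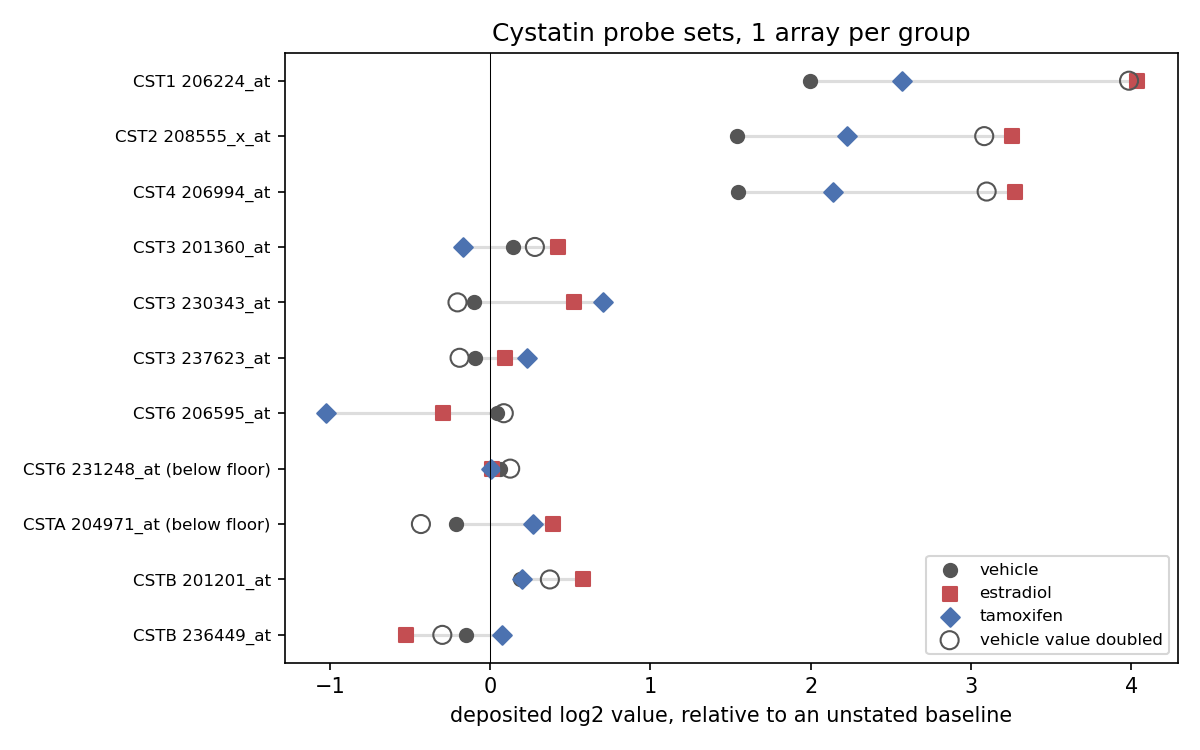
Deposited log2 value of each of the 11 cystatin probe sets (horizontal axis, relative to an unstated baseline) with vehicle (filled circles), estradiol (squares) and tamoxifen (diamonds), 1 array each; open circles show the vehicle value doubled. The probe sets of CST1, CST2 and CST4 lie far to the right of all others, and their doubled vehicle values fall next to the estradiol values.

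The comparison whose difference needs no vehicle value sets tamoxifen against estradiol at equal dose and time. The floor and the bands, and so the genes ranked, drew on all 3 columns, vehicle among them. CST1 was 2.76-fold lower with tamoxifen (log2 difference -1.46), CST4 was 2.19-fold lower (-1.13) and CST2 was 2.05-fold lower (-1.03). Of 11941 genes, CST1 had the rank 4 from the lowest difference, CST4 the rank 21 and CST2 the rank 25. In a bulk culture, fewer cells expressing a gene and less RNA per cell cannot be told apart. A drop of at least 2-fold was seen in 0.243% of all genes, among them these 3.

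CST6 and CST3 were also lower with tamoxifen than with estradiol, by less. CST6 differed by -0.73 (1.66-fold lower), at rank 115 from the lowest. CST3 differed by -0.59 (1.51-fold lower), just past the size rule of 1.5-fold, which is 0.585 on the log2 scale. CSTB, with a difference of -0.38, did not reach it. In all, 5 of the 6 cystatin genes bright enough to be kept reached 1.5-fold lower with tamoxifen, and 2.24% of all genes were. The median over the 6 was -0.88, and that over all genes -0.02. With all probe sets of a gene averaged the 5 became 3, since CST3 was then at -0.09 and CST6 at -0.37. The share of all genes in that setting is not given.

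**Figure D2:**
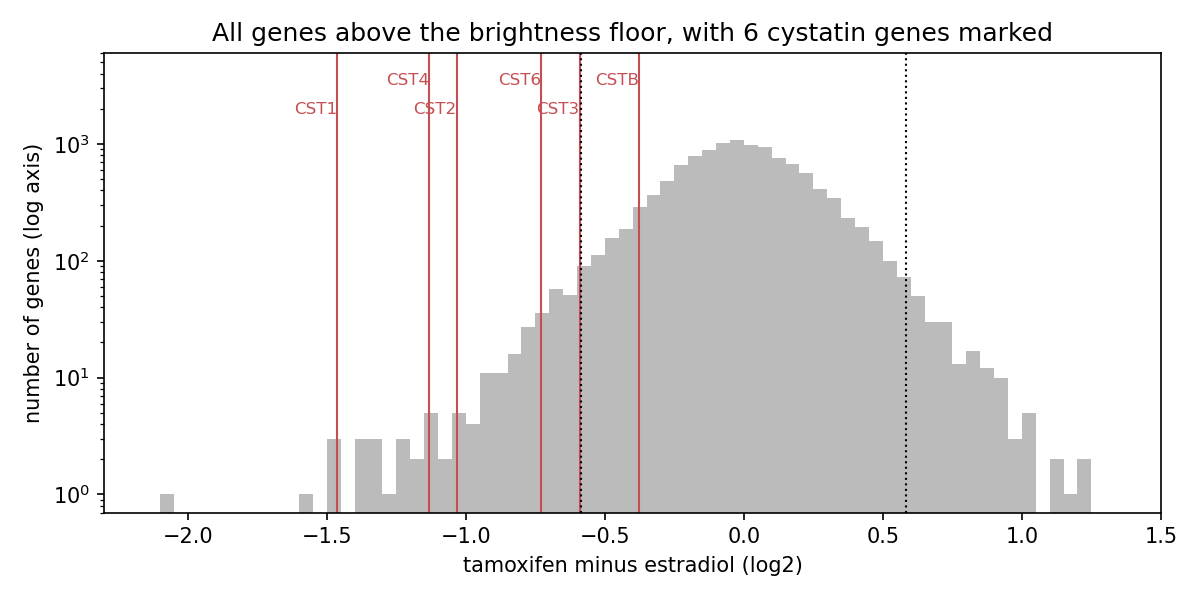
Tamoxifen minus estradiol (log2, horizontal axis) for the 11941 genes above the brightness floor, as a histogram with a log vertical axis; red lines mark the 6 cystatin genes and dotted lines the 1.5-fold rule. CST1, CST4 and CST2 lie in the thin left tail beyond -1, and CSTB alone of the 6 lies inside the rule.

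Against vehicle as deposited, estradiol gave higher values of the salivary-type genes. CST1 was 4.12-fold higher (2.04), CST4 3.30-fold higher (1.72) and CST2 3.29-fold higher (1.72), at ranks 11, 21 and 22 from the highest of 11941. These 3 were the only cystatin genes above the floor that passed 1.5-fold upward, as 5.89% of all genes did. CSTB was higher by 0.39 and CST3 by 0.28, and CST6 was lower (-0.34), all within the rule.

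With the vehicle value doubled, the estradiol differences of the salivary-type genes all but vanished. CST1 differed by 0.05, CST4 by 0.18 and CST2 by 0.18, and 0 of the 6 genes passed the rule upward, against 4.45% of all genes. The multiple of the vehicle value that equals the estradiol value was 2.02 for CST1, 2.11 for CST4 and 2.11 for CST2. The size of the estradiol difference in these genes therefore rests on the scale of the vehicle column.

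In CST1, CST2 and CST4 the direction of tamoxifen against vehicle turned over with that scale. As deposited, CST2 was 1.61-fold higher (0.68), CST4 1.51-fold higher (0.59) and CST1 1.49-fold higher (0.578, just short of the rule). Of the 6 genes, 2 passed 1.5-fold upward, as 7.03% of all genes did, and 1, CST6, passed it downward, as 4.43% did. With the vehicle doubled CST1 was lower by 1.41 (log2 difference -1.41), CST4 by 0.96 (-0.96) and CST2 by 0.86 (-0.86). Then 4 of the 6 passed the rule downward and 0 upward, as 3.71% and 7.19% of all genes did. The tamoxifen value equalled 1.29 times the vehicle value in CST1, 1.38 times in CST4 and 1.44 times in CST2. For any larger vehicle multiple, tamoxifen lay below vehicle.

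These multiples can be set beside those of other strongly raised probe sets. Above the floor, 232 probe sets had values over 1.5 with both ligands, CST1, CST2 and CST4 among them. Over these, the median share of vehicle in the estradiol value was 0.42 (quartiles 0.37 and 0.46), and in CST1, CST4 and CST2 it was 0.49, 0.47 and 0.47, at ranks 21, 41 and 42 from the highest. The median share of vehicle in the tamoxifen value was 0.43 (quartiles 0.36 and 0.49), and in CST1, CST4 and CST2 it was 0.78, 0.72 and 0.69, at ranks 2, 3 and 5 from the highest. Both shares lay above the upper quartile of the 232 in all 3 genes, and those with tamoxifen ranked higher. All these probe sets share the same 3 arrays and were picked by high ligand values, so the shares are a description only.

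**Figure D3:**
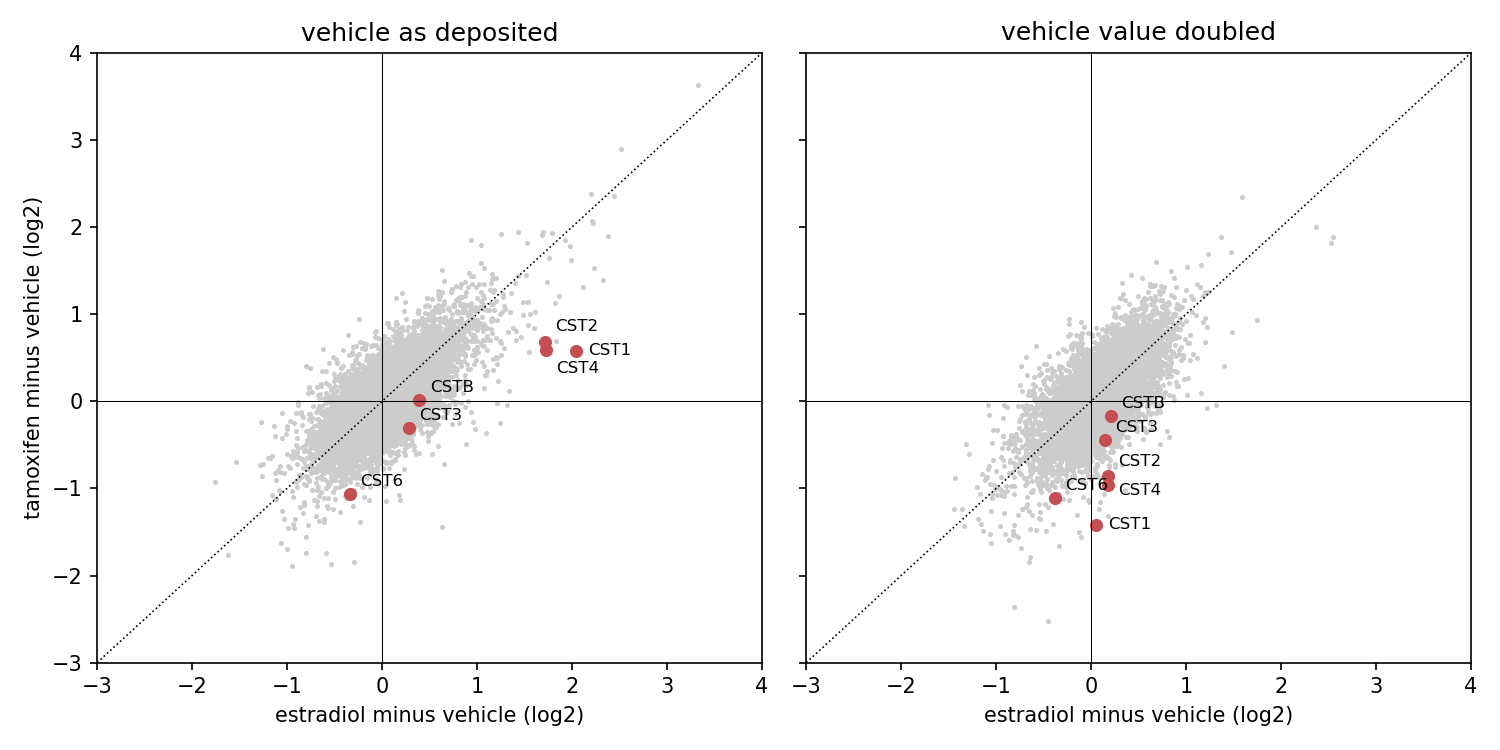
Estradiol minus vehicle (horizontal) against tamoxifen minus vehicle (vertical), both log2, for 11941 genes (grey) and 6 cystatin genes (red), with vehicle as deposited (left) and doubled (right); both axes share the vehicle array, and the dotted line marks equal differences. CST1, CST2 and CST4 lie above 0 on the vertical axis at left and below 0 at right, while CST6 is at -1.07 and -1.11.

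CST6 was lowest with tamoxifen. Its values were 0.04 with vehicle, -0.30 with estradiol and -1.02 with tamoxifen (206595_at), so vehicle was highest. Because its vehicle value lies near the baseline, doubling it can move the differences by only 0.04, and this is no measure of their stability. CST6 was 2.10-fold lower with tamoxifen than with vehicle (-1.07, and -1.11 with the vehicle doubled), at rank 49 from the lowest of 11941. Its other probe set, 231248_at, lay below the floor and read 0.06, 0.01 and 0.01. With both probe sets averaged the tamoxifen difference was -0.56, within the rule, so the CST6 result rests on 1 probe set. Of 6 genes listed from the same stretch of chromosome 11, 5 lay above the floor. Of these, 1 passed the rule downward with tamoxifen as deposited, as 4.43% of all genes did. It was BANF1 (-0.67), which encodes a chromatin-binding barrier protein. BANF1 and CATSPER1, a sperm calcium channel gene, are the coding genes on either side of CST6. Doubling the vehicle left BANF1 at -0.45, while CATSPER1 passed the rule downward with tamoxifen (-0.64), as 3.71% of all genes did. PACS1 passed it downward with estradiol (-0.62), for which the share of all genes is not given.

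CST3, the ubiquitous secreted inhibitor, was read by 3 probe sets that disagreed. The brightest, 201360_at, gave 0.14 with vehicle, 0.42 with estradiol and -0.17 with tamoxifen. The dimmer 230343_at gave -0.10, 0.52 and 0.71, and 237623_at gave -0.10, 0.09 and 0.23. All 3 were higher with estradiol than with vehicle, by 0.28, 0.63 and 0.19. With tamoxifen the first was lower than vehicle (-0.31), whereas the others were higher (0.81 and 0.32). Opposite signs of any size were common on these arrays, over 2401 genes with probe sets both in the band from 8 to 16 and in that from 4 to 8. Between the bands, 33.4% had opposite signs for tamoxifen minus vehicle and 42.1% for tamoxifen minus estradiol. The median absolute gap between the bands was 0.25 and 0.20. How often the gap was as wide as in CST3 was not counted.

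The stefins gave no steady direction. CSTB, the cytosolic inhibitor whose loss causes a progressive myoclonus epilepsy, gave 0.19, 0.58 and 0.20 with its bright probe set 201201_at. Estradiol was thus highest and tamoxifen level with vehicle as deposited. Doubling the vehicle put this probe set at 0.21 with estradiol and -0.17 with tamoxifen. The dimmer CSTB probe set 236449_at ran the other way, with -0.15, -0.52 and 0.07. Between tamoxifen and estradiol the bright probe set differed by -0.38 and the dimmer one by 0.59, past the rule upward. CSTA, a stefin of skin and blood cells, had 1 probe set, which lay in the dimmest band, below a level of about 2. It read -0.22 with vehicle, 0.39 with estradiol and 0.27 with tamoxifen. Its estradiol difference of 0.61 passed 1.5-fold, but at that brightness it is not counted among the genes above the floor.

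CST4, CST1 and CST2 lie side by side on chromosome 20 by the RefSeq order of coding genes, with CST3 next to CST4 and CST5 next to CST2. Of 15 genes listed in and around this cluster, 7 lay above the floor: the 4 members and NAPB, GZF1 and NXT1, which have no cystatin function. CSTL1, CST11, CST8, CST9L, CST9 and CST5, mostly known from the reproductive tract or glands, did not. The 3 other genes differed between tamoxifen and estradiol by -0.05 (NAPB), 0.01 (GZF1) and -0.11 (NXT1). Within this list the 4 cystatin genes alone passed the rule, downward, as 2.24% of all genes did. Of these 4, CST3 was just past it and stood at -0.09 with all its probe sets averaged. CST1, CST2 and CST4 may share signal. Of the members, a RefSeq promoter (GRCh38.p14) was matched for CST3. In the 250 bases before its start, on either strand, the SP1 box GGGCGG occurred 1 time, as it did at least 1 time in 42.6% of 35116 promoters. TATAAA (10.7% of promoters), the AP-1 site TGACTCA (4.2%), the cAMP response element TGACGTCA (1.65%) and the palindromic estrogen response element (0.0399%) did not occur in it.

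Of 11 other genes of the cystatin superfamily, 6 of them in the cluster list above, 1 lay above the floor. This was CST7, from outside that list, which encodes the leukocyte cystatin F. CST7 had values of 0.11 with vehicle, 0.35 with estradiol and -0.43 with tamoxifen. It was lower with tamoxifen than with estradiol by 0.78 (log2 difference -0.78), with estradiol highest and tamoxifen lowest. Against vehicle it stood at -0.54 with tamoxifen, and at -0.65 with the vehicle doubled. The plasma cystatin-type genes AHSG, FETUB, HRG and KNG1 all lay below the floor. Of the other cysteine protease inhibitors, calpastatin (CAST) and the invariant chain gene CD74 lay above it and passed the rule in no comparison, and SERPINB3, SERPINB4 and SERPINB13 lay below it.

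Of the proteases that cystatins block, the cathepsin gene CTSO alone passed the rule between tamoxifen and estradiol. Of 12 listed, 11 lay above the floor, and with estradiol 3 of the 11 passed 1.5-fold upward and 0 downward, as 5.89% of all genes passed upward. These were cathepsin O (CTSO, 0.85), the lysosomal cathepsin L (CTSL, 0.81) and cathepsin S (CTSS, 0.588), which trims the class II invariant chain. CTSS was just past the rule of 0.585, with 1 of its 3 probe sets above the floor. With tamoxifen CTSS (0.67) and CTSL (0.599, just past the rule) passed it upward, as 7.03% of all genes did, and CTSO stood at 0.09. With the vehicle doubled CTSS stood at 0.28 with estradiol and 0.36 with tamoxifen, and CTSL at 0.46 with tamoxifen. Against estradiol, tamoxifen gave CTSO a difference of -0.76, the 1 of 11 past the rule downward, as 2.24% of all genes were. CTSO read 0.61 with vehicle, 1.46 with estradiol and 0.71 with tamoxifen, so estradiol was highest and tamoxifen close to vehicle as deposited. After doubling the vehicle it stood at 0.24 with estradiol and -0.52 with tamoxifen.

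The median protease difference was 0.43 with estradiol and 0.35 with tamoxifen, beside 0.02 and 0.02 over all genes. With the vehicle doubled the medians were 0.28 and 0.36, beside 0.07 and 0.06. In that setting the bone-resorbing cathepsin K (CTSK, 0.81), CTSL (0.67) and cathepsin H (CTSH, 0.587) passed the rule upward with estradiol. So did 4.45% of all genes, and CTSH was just past the rule of 0.585. CTSK (0.72) passed it upward with tamoxifen, as 7.19% of all genes did. Legumain (LGMN), the target of CST6, differed from vehicle as deposited by -0.08 with estradiol and -0.13 with tamoxifen. Doubling the vehicle turned these to 0.09 and 0.04. The abundant cathepsin B (CTSB) differed by -0.06 and -0.05 as deposited, and by -0.12 and -0.12 with the vehicle doubled.

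**Figure D4:**
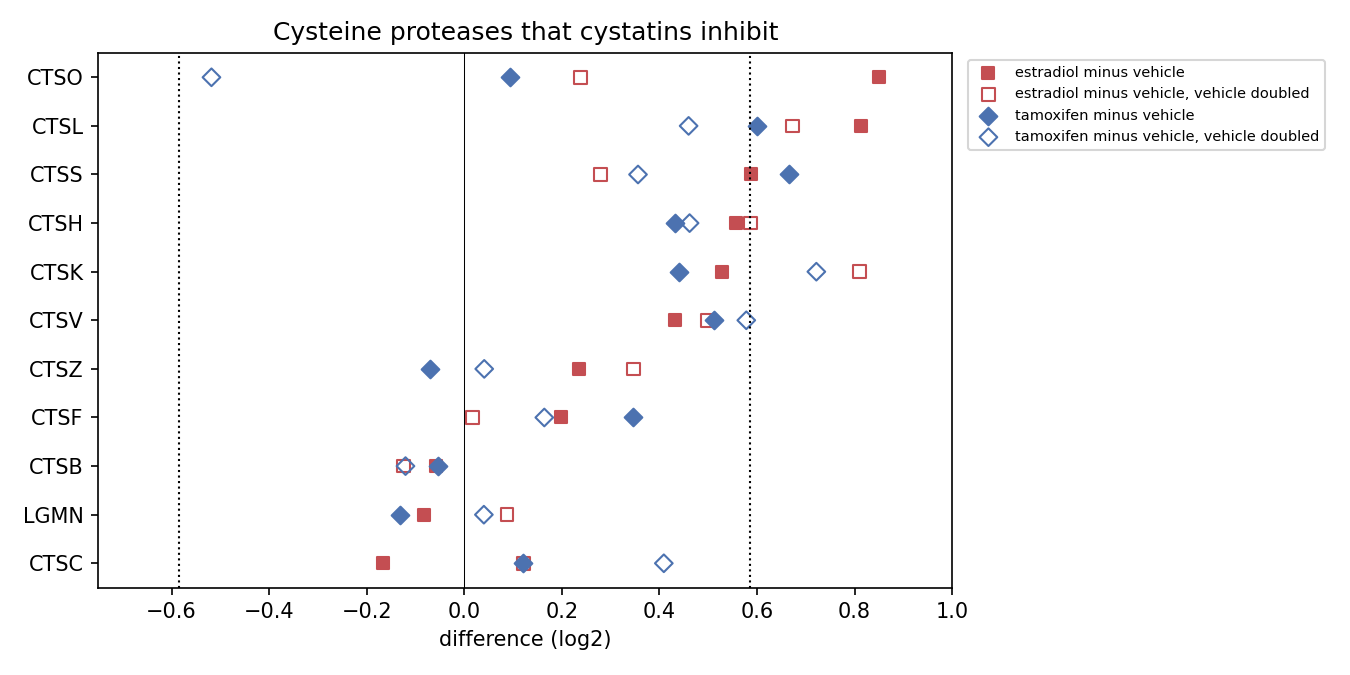
Differences from vehicle (log2, horizontal axis) of the 11 cysteine proteases above the floor, for estradiol (squares) and tamoxifen (diamonds), with vehicle as deposited (filled) or doubled (open); dotted lines mark the 1.5-fold rule. CTSL and CTSS lie past the rule with both ligands as deposited, and CTSO with estradiol only.

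Markers of tissues in which these cystatins are usually found were mostly below the floor. Of 8 salivary gland genes, 6 were named on the array and 2 lay above the floor, PRB1 and ZG16B. STATH, HTN1, MUC7 and PRB3 did not. ZG16B, a secretory lectin gene, read 0.67 with vehicle, 1.13 with estradiol and 0.74 with tamoxifen, with no difference past the rule as deposited. With the vehicle doubled it stood at -0.59 with tamoxifen, past the rule downward, and at -0.21 with estradiol. Its part in the cystatin values was not tested. Of 15 cornified envelope genes, the skin setting of CSTA and CST6, 13 were named and 3 lay above the floor (TGM5, KRT10 and EVPL), none past the rule in any comparison as deposited. Keratinocyte markers had 1 of 6 above the floor (KRT10), leukocyte markers 1 of 4 named (PTPRC), and fibroblast and endothelial markers 2 of 6 (PECAM1 and VWF). Among all the cell type markers, those past the rule as deposited were the basal marker S100A2 (0.87 with estradiol, and 0.01 with the vehicle doubled), ESR1 (-0.70 with tamoxifen against vehicle and -0.75 against estradiol) and PTPRC (0.62 with tamoxifen against estradiol). Their part in the cystatin values was not tested.

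By pattern, the genes nearest to CST1 were COXFA4L3, CST4, CST2 and TNFSF15, at distances of 0.24, 0.32, 0.34 and 0.49. The distance was Euclidean over the pair of differences from vehicle, which rest on 3 arrays. COXFA4L3, a small mitochondrial protein gene, differed from vehicle by 1.83 with estradiol and 0.69 with tamoxifen. TNFSF15, a TNF-family cytokine gene, differed by 1.55 and 0.56. The nearest to CST4 were CST2 (0.09), COXFA4L3 (0.15), TNFSF15 (0.18) and NUP62CL (0.28). With the vehicle doubled, COXFA4L3 stood at 0.80 with estradiol and -0.34 with tamoxifen and TNFSF15 at 0.55 and -0.44, further from CST1 (0.05 and -1.41) than its paralogs were.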

How the data were processed

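RNA of 3 cultures was hybridised to Affymetrix HG-U133 Plus 2 arrays, 1 array per group. The deposited log2 values were made by the authors with RMA, per the submitters' processing notes; the version, the baseline on which values were centred, the log base and any pooling are not given in the sources used here. The column medians were -0.04, -0.02 and -0.02. Of 54675 probe sets, the platform annotation gave 1 symbol to 41097 and several to 1801, 11777 had no entry there, and genes were named from those with 1 symbol.

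A level stored in single precision lies on coarser binary steps the brighter it is. The finest step over the 3 columns, with vehicle shifted by 1 step, put each probe set in a band (8 to 16, 4 to 8, 2 to 4 or below 2), and bands from 4 up were kept. Each gene was represented by the average of those of its probe sets that lay in the brightest band it reached. Differences of log2 values were taken; a size rule of 1.5-fold replaced a test. The calculation was run on simulated data in which the vehicle values had been divided by 2, as the bands assume. The differences planted there had vehicle at the baseline. That run therefore tests neither the vehicle scale nor the assumption on its steps. Members, gene lists, rules and alternatives were chosen with earlier results of these data known. All members were named; of each list, genes past the rule, up to 4 per comparison, plus some named after their values were seen (LGMN, CTSB, ZG16B, the cluster's neighbours and genes given for their place about the floor); and the 4 genes nearest in pattern to the 2 members that differed most with estradiol. Python 3.11.15, pandas 2.3.3 and numpy 2.4.6 were used.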

Additional observations from a re-analysis of the deposited data

How the results depend on the processing

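With 1 array per group, depth and replicate error are unknown and no replicate could be left out. No paired analysis was possible because each group had 1 array. Counts below are of cystatin genes past the size rule. Doubling the vehicle gave 0 genes with estradiol (3 as deposited) and turned tamoxifen minus vehicle to -0.86 in CST2 and -0.96 in CST4; the cause was not tested. A floor of 8 left 3 genes, of which 1 passed with estradiol, 0 with tamoxifen and 2 in tamoxifen minus estradiol. A 2-fold rule left 1 with tamoxifen and 3 in tamoxifen minus estradiol (5 at 1.5-fold), where 0.243% of all genes were at least 2-fold lower. With all probe sets averaged, 3 passed in tamoxifen minus estradiol. The setting with no floor averaged all probe sets too and also gave 3, so it does not show what the floor alone does. For the changed floors, the averaging and the 2-fold rule with tamoxifen, the share of all genes is not given. Those counts cannot be set against it. Centring each column moved differences from vehicle by under 0.02 and took CST4 with tamoxifen to 0.58, just short of the rule; without the probe set types that can cross-react CST2 was lost and no other member changed. Of 108 member values compared under these alternatives, 91 kept their direction and side of the rule or stayed within it. Another 14 no longer passed it, 1 newly passed it with the opposite sign (CST1, tamoxifen minus vehicle) and 2 reversed. Of the 91, 9 with the floor of 8 and 15 without cross-reacting types were the same numbers and could not change. CST1, CST2 and CST4, with 1 probe set each, could not change with no floor or with averaging either. Those settings gave the same values as each other for the genes compared. The 2-fold rule recomputed no value and could only take a gene back within it. The 91 are therefore no measure of stability.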
